A study of Mus musculus with 10 samples.

Results

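The 9 marker genes studied here, of bile duct epithelium and of the ductular reaction, were followed in whole mouse liver. They were Spp1, Krt7, Krt19, Bicc1, Sox9, Epcam, Krt8, Krt18 and Cldn7. These 9 genes, of 41388 in the files and 13444 that entered the tests, were chosen by their expression, after Spp1, Krt7, Krt19 and Bicc1 had been seen higher in livers without hepatocyte NAMPT. The remaining 5 are further markers of the same cells. Their levels in that comparison are therefore described here without a test. All 9 passed the filter of more than 1 CPM (a count scaled to the library's total) in at least 1 library, but Cldn7 passed through 1 NAMPT LKO library alone. Epcam passed through 5 NAMPT LKO libraries and 1 WT Fasting library, Krt7 through 2 NAMPT LKO and 1 WT Fed library, and Krt19 through 3 NAMPT LKO and 1 WT Fed library.

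The livers came from C57B/6J mice of about 12 weeks, taken as 1 library per mouse, in 3 groups. WT Fed mice (n = 2) were refed for 2 h after a 22 h fast, and WT Fasting mice (n = 3) were fasted for 24 h. NAMPT LKO Fasting mice (n = 5) were fasted in the same way and lacked Nampt in hepatocytes, through a Cre recombinase driven by the Albumin promoter acting on Nampt LoxP/LoxP alleles. The WT mice were littermates with the same floxed alleles and no Cre, so loss of Nampt and presence of Cre cannot be told apart. No fed NAMPT LKO libraries entered, so the genotype was compared in fasting only. The study's text gives a shorter fast and freely fed controls, while the times used here are those of the sample labels.

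Cholangiocytes, the epithelial cells that line the bile ducts, are a small minority of liver cells and are joined by claudins and Epcam over a cytoskeleton of keratins 7, 8, 18 and 19. Hepatocytes carry keratins 8 and 18 but normally little or no keratin 7 or 19. In the ductular reaction, duct-like cells expand around the portal tracts, and Spp1, Sox9 and Epcam are commonly used to see them. In whole tissue, a change in the number of cells of a type and a change in the RNA per cell cannot be told apart.

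The libraries held between 30603080 and 43434139 counts. Mitochondrial genes took 10.4% to 12.9% of the counts in 8 libraries, 7.42% in WT Fasting mouse 3 and 21.1% in NAMPT LKO mouse 5, whose TMM factor was 0.854 against 0.964 to 1.05 in the others. Nampt itself averaged 72.9 ± 7.25 CPM in WT Fed (SD, n = 2), 92.4 ± 42.3 CPM in WT Fasting (n = 3) and 13.2 ± 1.49 CPM in NAMPT LKO (n = 5), a log2 difference between the fasting groups of -2.81 (SE 0.22, adjusted p = 0.00102, edgeR quasi-likelihood test). It was the only gene called between the fasting groups, 0.00744% of those tested, whereas 7.04% of genes were called between WT Fasting and WT Fed (2.68% higher, 4.36% lower). Of the calls between WT Fasting and WT Fed, 38.1% were higher, or 25.7% when scaled by library size alone. Albumin (Alb), the main hepatocyte secretory product, lay between 40110 and 83480 CPM in every liver. All values below are CPM scaled by trimmed-mean (TMM) factors unless said otherwise.

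Promoter windows are shown for 2 markers that were higher in every NAMPT LKO liver than in every WT liver (Spp1, Epcam), for 1 that was lowest in WT Fasting (Krt7), and for 1 keratin shared with hepatocytes (Krt8). Each covers 250 bases before to 50 bases after a RefSeq start on GRCm38.p6, read 5′ to 3′ on the gene's strand, and 6 of the 9 markers had a window in the table (Krt19, Bicc1 and Sox9 had none). The windows are chr5:104434861-104435160 on the plus strand for Spp1 (the upstream one of its 2 starts), chr15:101412153-101412452 on the plus strand for Krt7, chr17:87635729-87636028 on the plus strand for Epcam and chr15:102004293-102004592 on the minus strand for Krt8. Capitals mark matches on either strand to 5 motifs.
Spp1: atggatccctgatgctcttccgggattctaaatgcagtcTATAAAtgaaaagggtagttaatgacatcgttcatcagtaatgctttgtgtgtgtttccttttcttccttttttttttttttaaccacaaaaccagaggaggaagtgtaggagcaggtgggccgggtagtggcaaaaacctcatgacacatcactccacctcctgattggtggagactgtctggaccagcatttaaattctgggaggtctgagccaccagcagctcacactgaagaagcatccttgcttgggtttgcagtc
Krt7: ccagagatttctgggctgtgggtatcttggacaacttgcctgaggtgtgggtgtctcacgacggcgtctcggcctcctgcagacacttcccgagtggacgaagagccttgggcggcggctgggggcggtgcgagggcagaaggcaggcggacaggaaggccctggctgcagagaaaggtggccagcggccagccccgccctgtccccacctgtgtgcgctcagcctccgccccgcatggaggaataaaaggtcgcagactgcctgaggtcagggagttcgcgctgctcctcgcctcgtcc
Epcam: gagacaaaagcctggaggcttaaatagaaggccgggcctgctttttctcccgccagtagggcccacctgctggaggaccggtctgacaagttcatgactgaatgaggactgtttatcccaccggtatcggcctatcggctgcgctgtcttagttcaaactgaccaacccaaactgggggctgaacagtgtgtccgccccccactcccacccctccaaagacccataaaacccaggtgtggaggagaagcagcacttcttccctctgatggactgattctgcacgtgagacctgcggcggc
Krt8: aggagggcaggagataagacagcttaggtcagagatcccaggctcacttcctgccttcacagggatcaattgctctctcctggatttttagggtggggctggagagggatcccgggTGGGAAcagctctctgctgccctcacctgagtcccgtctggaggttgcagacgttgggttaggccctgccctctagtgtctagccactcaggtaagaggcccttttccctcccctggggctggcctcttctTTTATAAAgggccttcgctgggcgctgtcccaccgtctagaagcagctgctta
The TATA box was searched as TATAAA, which 13.6% of 32851 mouse promoter windows of this length held. The site of the TEAD factors, which act with YAP, was searched as GGAATG and was held by 14.7% of the windows. The site of RBPJ, the Notch pathway's DNA-binding protein, was searched as TGGGAA and was held by 25.6%. A SOX site was searched as ACAATG (12.6% of windows). An AP-1 site was searched as TGANTCA (7.81% of windows). Spp1 held 1 TATAAA, with its first base at -211 from the start. Krt8 held TGGGAA at -134 and a TATAAA at -1, across the start, that overlapped its own reverse complement at -3. Whether any of these matches works as a site was not tested. The windows of Krt7, Epcam and Krt18 (not printed) held none of these letters. Of the 2 windows of Cldn7, also not printed, 1 held GGAATG at -70 and the other held the reverse complement of TGGGAA at -164. GC content ran from 45.3% in the Spp1 window through 57% for Epcam and 58% for Krt8 to 66.3% for Krt7.

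Spp1, Bicc1 and Epcam lay higher in all 5 NAMPT LKO livers than in all 5 WT livers, fed or fasting. Krt7 and Krt19 lay higher in NAMPT LKO than in WT Fasting but overlapped WT Fed, and both were lowest in WT Fasting. Sox9, Krt8, Krt18 and Cldn7 overlapped between the fasting groups. Across all genes, 0.907% separated NAMPT LKO above both WT groups, 0.699% had WT Fasting below both other groups, 1.87% had NAMPT LKO above WT Fasting and 2.12% had it below. Against WT Fed alone, 15.7% of genes had NAMPT LKO above and 17.8% below. The markers were picked with this comparison known, so nothing is read from their count against those shares.

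**Figure D1:**
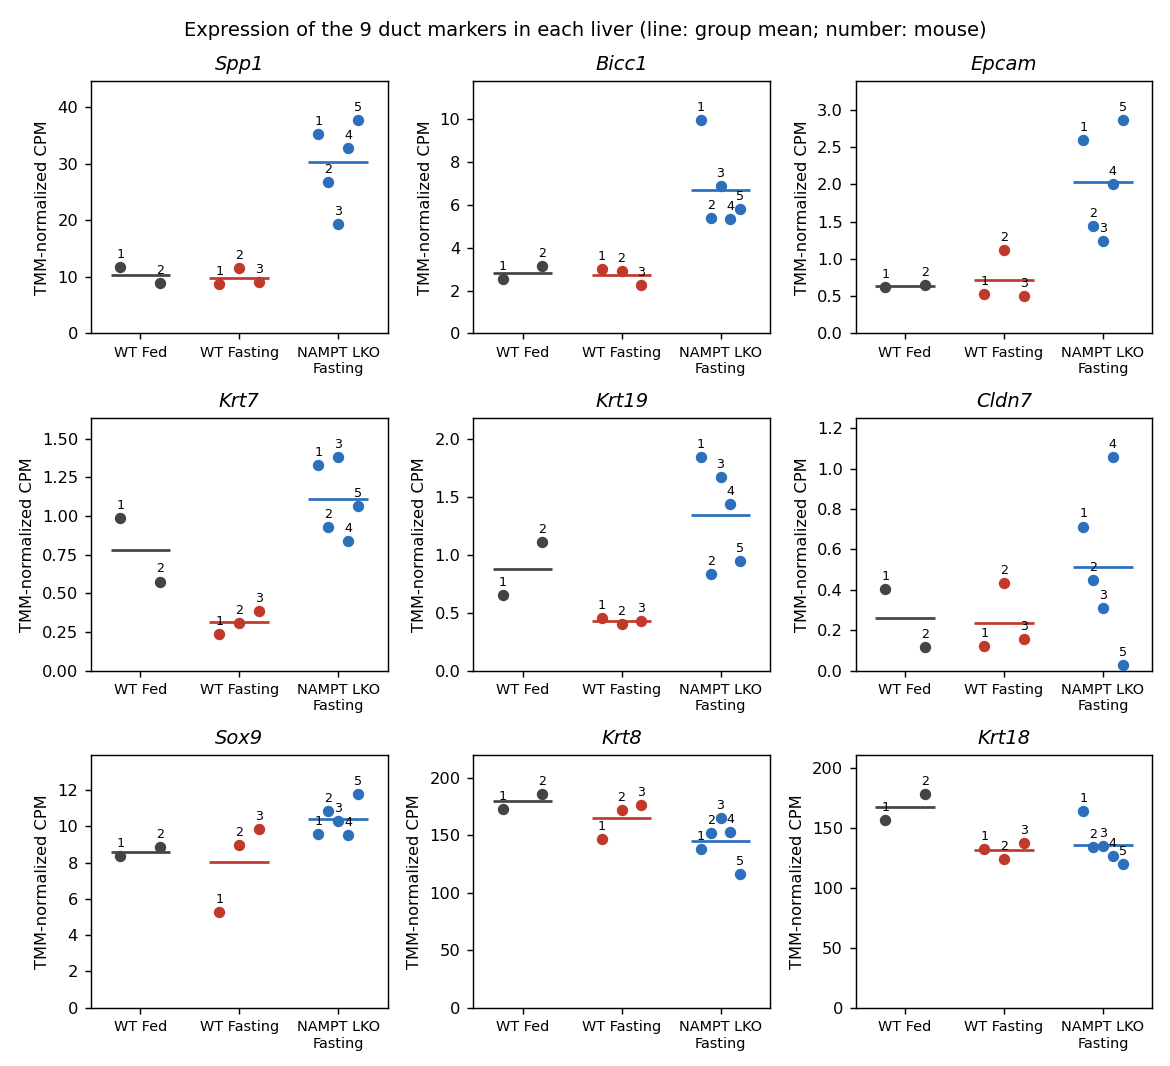
TMM-normalized CPM (y axis, from 0, a separate scale per gene) of the 9 markers in each liver, by group on the x axis. Points are single mice labelled by number and lines are group means. Spp1, Bicc1 and Epcam separate the 5 NAMPT LKO livers from all WT livers, Krt7 and Krt19 are lowest in WT Fasting, and Krt8 and Krt18 differ little.

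Spp1 encodes osteopontin, a secreted adhesive phosphoprotein made by bile duct cells and by some macrophages (chr5:104435118-104441050, plus strand, GRCm38). It stood at 11.8 and 8.95 CPM in the WT Fed livers and at 8.67, 11.5 and 9.06 CPM in the WT Fasting livers. In the NAMPT LKO livers it reached 35.2, 26.7, 19.4, 32.8 and 37.8 CPM in mice 1 to 5. Every NAMPT LKO liver was above every WT liver, and the WT groups overlapped. The fitted difference from WT Fasting was 1.64 on the log2 scale (SE 0.22), or 3.12-fold, and from WT Fed 1.55. These rested on 362 to 526 counts per WT library and 814 to 1279 per NAMPT LKO library. On the per-length scale deposited by the authors (RPKM), its mean was 17.7 in NAMPT LKO, 5.83 in WT Fasting and 6.48 in WT Fed.

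Bicc1 encodes an RNA-binding protein that is needed for normal kidney tubules and bile ducts (chr10:70922832-71159700, minus strand). Its levels were 2.55 and 3.14 CPM in WT Fed, 3.02, 2.91 and 2.24 CPM in WT Fasting, and 9.99, 5.38, 6.87, 5.35 and 5.79 CPM in NAMPT LKO mice 1 to 5. Mouse 1 was the highest, and the lowest NAMPT LKO liver still lay well clear of the highest WT liver. The log2 difference was 1.29 from WT Fasting (SE 0.24, 2.45-fold) and 1.23 from WT Fed. Without mouse 1 the difference from WT Fasting was 1.10. Epcam encodes a cell adhesion molecule of the epithelial surface (chr17:87635979-87651106, plus strand). It was at 0.628 and 0.646 CPM in WT Fed, 0.527, 1.12 and 0.498 CPM in WT Fasting, and 2.59, 1.44, 1.24, 2.01 and 2.87 CPM in NAMPT LKO. The gap between WT Fasting mouse 2 (1.12 CPM, 36 counts) and NAMPT LKO mouse 3 (1.24 CPM, 52 counts) was narrow. Epcam differed by 1.52 on the log2 scale from WT Fasting (SE 0.39, 2.87-fold) and by 1.67 from WT Fed.

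Krt7 and Krt19 encode the keratins that mark ducts against hepatocytes, and both were sparse. Krt7 (chr15:101411043-101430313, plus strand) was at 0.986 and 0.576 CPM in WT Fed, 0.240, 0.310 and 0.385 CPM in WT Fasting, and 1.33, 0.929, 1.38, 0.841 and 1.06 CPM in NAMPT LKO. Its counts were 10, 10 and 17 in WT Fasting and 25 to 58 in the other groups. Krt19 (chr11:100140810-100148665, minus strand) was at 0.650 and 1.11 CPM in WT Fed, 0.455, 0.403 and 0.431 CPM in WT Fasting, and 1.85, 0.833, 1.67, 1.44 and 0.946 CPM in NAMPT LKO. Its counts were 13 to 19 in WT Fasting and 26 to 70 in the other groups. Against WT Fasting the log2 differences in NAMPT LKO were 1.82 for Krt7 (SE 0.36) and 1.64 for Krt19 (SE 0.37). Against WT Fed they were 0.50 and 0.62, with overlapping livers.

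Sox9 encodes the transcription factor of the duct lineage, and its levels differed less (chr11:112782224-112787760, plus strand). They were 8.36 and 8.85 CPM in WT Fed, 5.29, 8.96 and 9.86 CPM in WT Fasting, and 9.60, 10.9, 10.3, 9.53 and 11.8 CPM in NAMPT LKO. All 5 NAMPT LKO livers were above both WT Fed livers, and WT Fasting mouse 3 reached into their range. The log2 difference from WT Fasting was 0.37 (SE 0.19), and it was 0.15 without WT Fasting mouse 1, the lowest liver. Cldn7, a tight junction claudin (chr11:69964779-69967885, plus strand), scattered from 0.0296 to 1.06 CPM within NAMPT LKO, or 1 to 39 counts. It was at 0.403 and 0.115 CPM in WT Fed and at 0.120, 0.434 and 0.159 CPM in WT Fasting. Its log2 difference from WT Fasting was 1.14 with an SE of 0.84. The difference was 0.82, 1.85 and 0.92 without WT Fasting mouse 1, 2 or 3. Without NAMPT LKO mouse 4, Cldn7 failed the filter.

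Krt8 and Krt18 encode the keratin pair of simple epithelia and were the most abundant of the markers per length. Krt8 (chr15:101996711-102004342, minus strand) was at 173 and 186 CPM in WT Fed, 147, 172 and 177 CPM in WT Fasting, and 138, 152, 165, 153 and 116 CPM in NAMPT LKO. The NAMPT LKO livers were all below the WT Fed livers and overlapped WT Fasting (log2 difference -0.19, SE 0.12). Krt18 (chr15:102028216-102032026, plus strand) was at 156 and 178 CPM in WT Fed, 132, 124 and 137 CPM in WT Fasting, and 164, 134, 135, 126 and 120 CPM in NAMPT LKO, with a log2 difference from WT Fasting of 0.047 (SE 0.11). These neighbours lie 23.9 kb apart on chromosome 15, and Krt7 lies 566 kb from Krt8.

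In deposited RPKM, the order of the mean levels in NAMPT LKO was Krt18 (94.3), Krt8 (78.2), Spp1 (17.7), Sox9 (2.43), Epcam (0.951), Bicc1 (0.875), Krt19 (0.712), Cldn7 (0.262) and Krt7 (0.153). The ranges of Krt18 and Krt8 over the 5 livers overlapped (71.8 to 118 against 53.9 to 93.1), as did those of Epcam, Bicc1 and Krt19. Cldn7 ran from 0.0127 to 0.537 and overlapped both Krt19 and Krt7, so these neighbours in the order did not differ beyond their spread. In WT Fasting the corresponding means were 93.0 and 90.4 for the keratin pair, 5.83 for Spp1, 1.92 for Sox9, 0.342 for Epcam, 0.362 for Bicc1, 0.230 for Krt19, 0.119 for Cldn7 and 0.0438 for Krt7. The keratins of ducts were thus far below those shared with hepatocytes in both genotypes. Counting by strand is not stated in the sources used here, and annotated antisense or opposite-strand genes overlap Krt7 (Gm671), Bicc1 (Gm15647, at 0 to 2 counts) and Krt8 (Gm36026). Reads of such a pair cannot be told apart without strand, and Krt8 also has a processed pseudogene, Krt8-ps.

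The NAMPT LKO mice did not share 1 order across the markers. Spp1 and Epcam were lowest in mouse 3, and they were highest in mouse 5 on the TMM scale but in mouse 1 in deposited RPKM. Krt7 was highest in mouse 3, while Krt19 and Bicc1 were highest in mouse 1.

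Between WT Fasting and WT Fed, a comparison that shares the WT Fasting libraries with the choice of the markers, 0 of 9 were called at an adjusted p of 0.05 by edgeR's quasi-likelihood test, against 7.04% of all genes. At an unadjusted p under 0.05 there were 3, all lower in WT Fasting, where 22.3% of all genes passed (10.4% higher and 11.9% lower). edgeR's exact test and DESeq2 called 0 with 2 and 3 unadjusted, and limma voom with quality weights called 2, Krt7 and Krt18. Krt7 differed by -1.32 (SE 0.42, adjusted p = 0.0861), Krt19 by -1.02 (SE 0.43, adjusted p = 0.193) and Krt18 by -0.35 (SE 0.14, adjusted p = 0.172), each without overlap of the groups. Of all genes, 25.1% had WT Fasting below WT Fed without overlap and 24.5% above. The other 6 gave log2 differences from -0.18 to 0.15 with adjusted p from 0.693 to 0.944. Epcam alone was above 0, where 53.6% of all genes were, and the median over the 9 was -0.12, beside 0.037 over all genes.

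**Figure D2:**
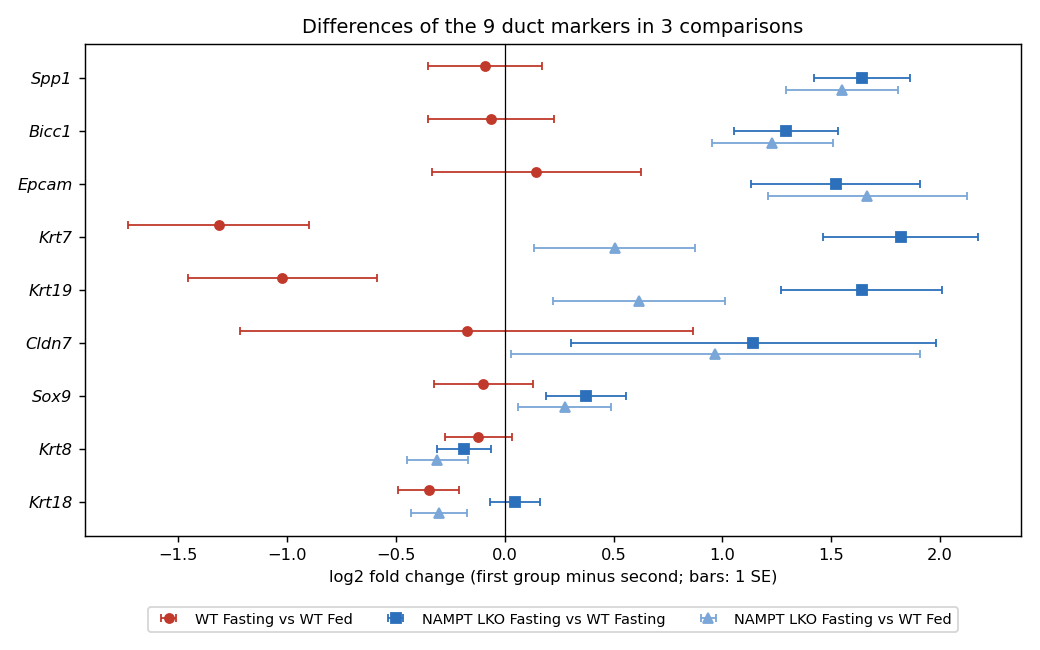
Fitted log2 fold change (x axis, first group minus second, bars 1 SE) of the 9 markers (y axis) in 3 comparisons, each a separate symbol. Against WT Fasting the NAMPT LKO values of Spp1, Krt7, Krt19, Bicc1 and Epcam lie between 1.29 and 1.82. Against WT Fed those of Krt7 and Krt19 are 0.50 and 0.62, and between the WT groups both are below 0.

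Over the 9 markers, 8 had a log2 difference above 0 between NAMPT LKO and WT Fasting, beside 50.1% of all genes. The median of the 9 was 1.29, beside 0.00025 over all genes. The markers were picked with this comparison known, so nothing is read from these values against those of all genes. Besides Spp1, Krt7, Krt19 and Bicc1, the values were 0.37 (Sox9), 1.52 (Epcam), -0.19 (Krt8), 0.047 (Krt18) and 1.14 (Cldn7). Cldn7 passed the filter through 1 NAMPT LKO library alone. Against WT Fed, 7 of 9 were above 0 with a median of 0.62, beside 0.032 over all genes. The share of all genes above 0 was not computed there, and nothing is read from this count. Against WT Fasting, Krt18 was the nearest to 0 and turned to -0.029 without NAMPT LKO mouse 1. The comparisons share the NAMPT LKO libraries. The median against WT Fasting was 1.37 without NAMPT LKO mouse 5 and 1.17 without WT Fasting mouse 3, the libraries with the highest and lowest mitochondrial share.

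Genes of the same cells and pathways that were not among the 9 were also read. Of 134 such genes on 8 lists, 105 were tested. Between NAMPT LKO and WT Fasting 0 were called by edgeR's quasi-likelihood test, by its exact test or by voom, and DESeq2 called 1, Cd24a. At an unadjusted p under 0.05 there were 15, 14 higher (2 of them, St14 and Tspan8, through NAMPT LKO libraries alone in the filter) and 1 lower, against 6.03% of all genes (2.72% higher and 3.31% lower). Values above 0 were found for 72 of 105, with a median of 0.096. The lists were chosen with earlier results of these data known, so nothing is read from these values against those of all genes.

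Of 33 other genes of biliary epithelium, 20 were tested, 18 of them above 0, with a median of 0.50 beside 0.00025 over all genes, and 7 with an unadjusted p under 0.05, all higher. Without the filter on low counts, 28 of 33 were above 0 with a median of 0.51, and 3 of the 20 had passed the filter through NAMPT LKO libraries alone, 2 of them among the 7. Over the 17 others, 5 were higher at an unadjusted p under 0.05, 15 were above 0 and the median was 0.29. This list holds further genes of the cells that the markers stand for, and it was chosen with earlier results known. Nothing is therefore read from its values against those of all genes. The genes named next were chosen after their values were seen. Pkhd1, which encodes the fibrocystin of the duct cell cilium, was 3.01 to 3.51 CPM in WT Fasting and 4.41 to 5.44 CPM in NAMPT LKO (log2 0.55, SE 0.16, adjusted p = 0.761). Cd24a, a surface glycoprotein of progenitor-like duct cells, averaged 1.37 ± 0.291 CPM (SD, n = 3) and 3.61 ± 1.46 CPM (n = 5) without overlap (adjusted p = 0.761, edgeR's quasi-likelihood test). St14, the protease matriptase, and Ddr1, a collagen receptor, had log2 differences of 1.34 (St14 passed the filter through NAMPT LKO libraries alone) and 0.85, and Dcdc2a, a cilium protein of bile ducts, 0.83, each without overlap of the fasting groups. Cldn3, a claudin, and Tm4sf4, a membrane glycoprotein, were the list's most abundant genes per length and had log2 differences of -0.076 and 0.063. Neither passed the test. Slc10a2, the apical bile acid transporter of ducts, was lower in WT Fasting than in WT Fed (log2 -1.67, SE 0.36, adjusted p = 0.0199) and did not pass the test between the fasting groups (0.17, adjusted p = 0.926).

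**Figure D3:**
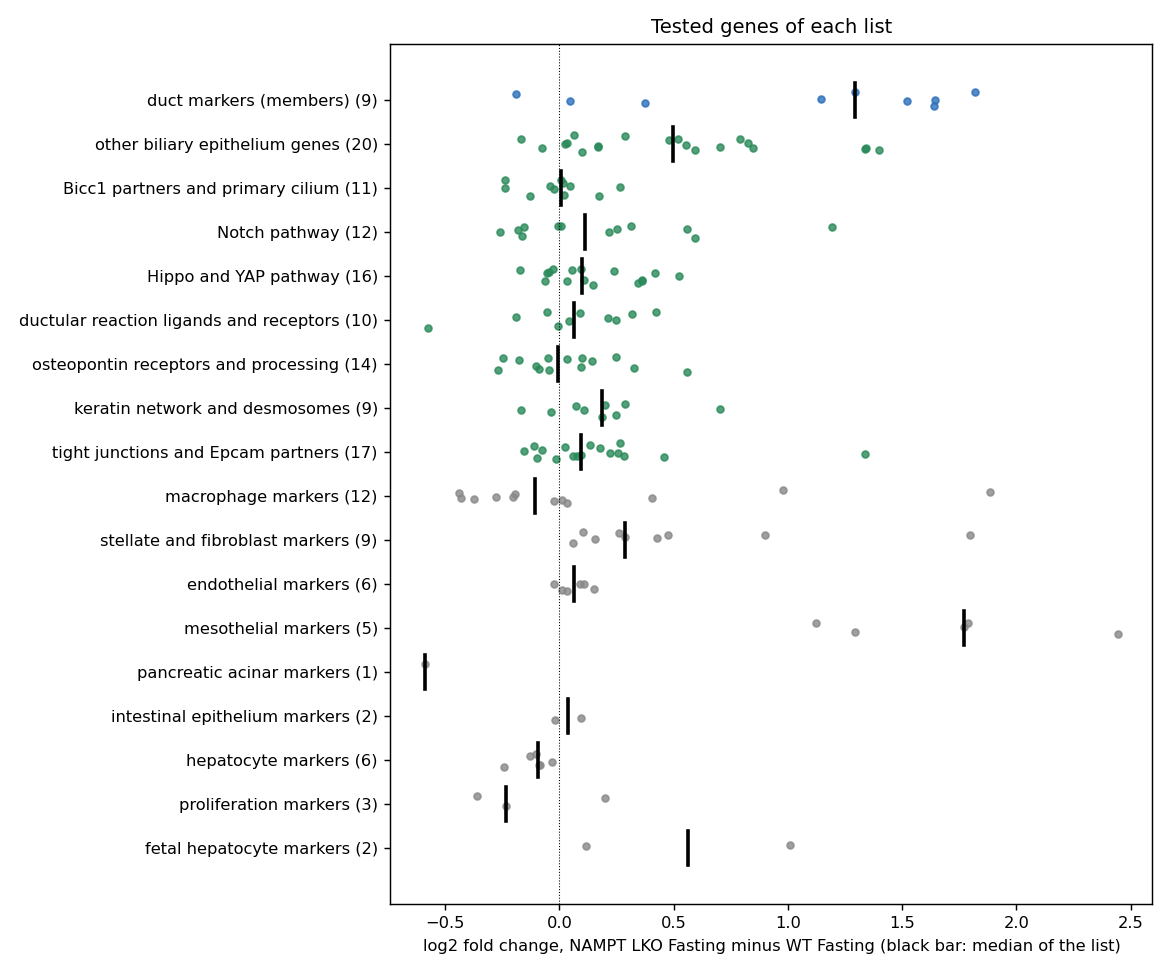
Log2 fold change between NAMPT LKO and WT Fasting (x axis) of each tested gene, by list (y axis, number of genes in brackets), with a black bar at each list's median. The 9 markers, chosen with this comparison known, centre at 1.29, the other biliary epithelium genes at 0.50 and the mesothelial markers at 1.77. The other pathway lists lie between -0.0058 and 0.19. Cldn7, 3 of the 20 biliary genes and 4 of the 5 mesothelial markers passed the filter through NAMPT LKO libraries alone. The 17 other biliary genes centre at 0.29.

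The keratin network and desmosome list had 7 of 9 tested genes above 0 (median 0.19), with Ppl, the desmosome-linked periplakin, at 0.70 (SE 0.21, adjusted p = 0.761). The Notch pathway, which directs duct fate, had 7 of 12 above 0 (median 0.11), and its ligand Jag1 was 0.56. The Hippo and YAP pathway, which controls duct-like conversion, had 11 of 16 above 0 (median 0.10). Tight junction genes gave 12 of 17 (median 0.096), ligands and receptors of the ductular reaction 6 of 10 (0.065), partners of Bicc1 and the cilium 6 of 11 (0.0070) and osteopontin receptors and processing 7 of 14 (-0.0058). None of these 7 lists held a gene called between the fasting groups by any of the 4 tools, and some genes stand on more than 1 list.

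Between WT Fasting and WT Fed, 8 of the 105 genes were called, 4 higher and 4 lower, beside 7.04% of all genes. The WT Fed mice had been refed for 2 h after a 22 h fast, so responses to fasting and to refeeding cannot be told apart. Ccn2, a YAP target, was higher in WT Fasting by 1.86 (SE 0.37, adjusted p = 0.0135, edgeR's quasi-likelihood test). It lay at 4.08 to 4.63 CPM in WT Fed and at 15.1 to 17.0 CPM in WT Fasting. Adcy6, an adenylyl cyclase, was higher by 1.13, Dsc2, a desmosomal cadherin, by 0.98, and Ocln, a tight junction protein, by 0.90. Hes1, a Notch target, differed by -1.88 (SE 0.42, adjusted p = 0.0234, same test), and Ajuba by -1.52 (adjusted p = 0.0348). Hes1 was at 19.6 and 20.8 CPM in WT Fed and at 3.86 to 8.47 CPM in WT Fasting. Cldn2, a claudin of leaky tight junctions, differed by -0.84 (adjusted p = 0.0397), and Slc10a2 was given above. DESeq2 called 13 of the 105, the exact test 12 and voom 30. Without a single liver the calls numbered 2 (WT Fed mouse 1), 0 (WT Fed mouse 2), 4 (WT Fasting mouse 1), 4 (WT Fasting mouse 2) and 8 (WT Fasting mouse 3).

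Markers of other cells that whole liver can hold were read in the same way, and none was called between the fasting groups by edgeR's quasi-likelihood test. The 5 mesothelial markers (Msln, Upk3b, Wt1, Upk1b and Lrrn4, of the cells that cover the liver surface) were all above 0 between NAMPT LKO and WT Fasting, with a median of 1.77, and 4 of the 5 had passed the filter through NAMPT LKO libraries alone. Their sum was 1.26 and 0.784 CPM in WT Fed, 2.08, 1.71 and 2.61 CPM in WT Fasting, and 9.95, 5.64, 9.33, 2.77 and 2.34 CPM in NAMPT LKO mice 1 to 5. Lrrn4 was at 2.44 (SE 0.59, adjusted p = 0.761) and was called by the exact test and DESeq2, but it was 1 of the 4 that passed the filter through NAMPT LKO libraries alone. Keratins 7, 8, 18 and 19 are also made by mesothelium, and the part of these cells in the duct values was not tested. Mice 1 and 3 had the highest mesothelial sums and also the highest Krt7, Krt19 and Bicc1, while Spp1 and Epcam were lowest in mouse 3.

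**Figure D4:**
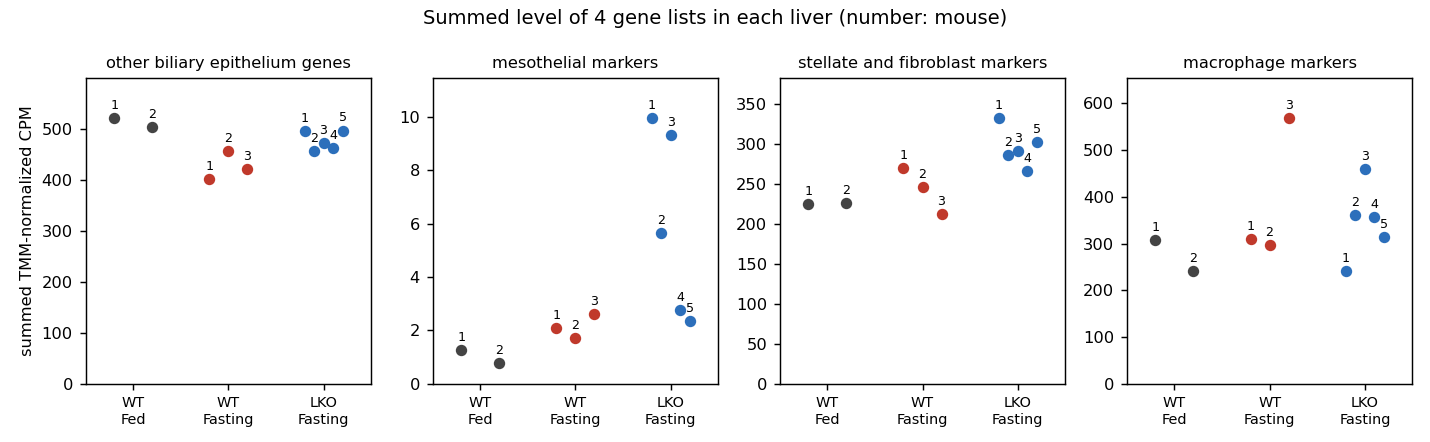
Summed TMM-normalized CPM (y axis, from 0) of 4 gene lists in each liver (points, numbered by mouse) by group. The mesothelial sum is 5.64 to 9.95 CPM in NAMPT LKO mice 1 to 3 and 2.34 to 2.77 CPM in mice 4 and 5, near the WT Fasting range of 1.71 to 2.61 CPM.

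Stellate and fibroblast markers were also above 0 in 9 of 9 tested (median 0.29), and their sum was 212 to 271 CPM in WT Fasting and 267 to 333 CPM in NAMPT LKO, so that the ranges overlapped. Col1a1, the fibrillar collagen of scar tissue, was 1.25 to 1.67 CPM in WT Fasting and 2.01 to 8.59 CPM in NAMPT LKO (log2 1.79, SE 0.47, adjusted p = 0.761), and was called by DESeq2. Macrophage markers, relevant to Spp1, were above 0 in 5 of 12 (median -0.11). Their sums were 309, 297 and 568 CPM in WT Fasting mice 1 to 3 and 241 to 459 CPM in NAMPT LKO. The median sum was 309 CPM in WT Fasting and 357 CPM in NAMPT LKO, so the highest WT Fasting value rested on mouse 3. The part of that liver in the differences of single macrophage genes was not tested. Gpnmb, Trem2 and Cd9, genes of lipid-associated macrophages that also make Spp1, were at 1.89, 0.98 and 0.41. Gpnmb had an SE of 0.84 (adjusted p = 0.827, edgeR's quasi-likelihood test) and passed the filter through NAMPT LKO libraries alone. Adgre1, Timd4 and Csf1r were at -0.44, -0.43 and -0.37. These 6 were the highest and the lowest of the 12, chosen after their values were seen, and none passed the test. The other macrophage markers lay between -0.28 (Cd5l) and 0.034 (Marco), with Clec4f at -0.20 and Vsig4 at -0.021. The 6 endothelial markers (5 of 6 above 0, median 0.062), hepatocyte markers (0 of 6 above 0, median -0.095), proliferation markers (1 of 3, median -0.23) and fetal hepatocyte markers (2 of 2, median 0.56) had no gene called. Pancreatic acinar genes were sparse, with Cpa1 and Prss2 at 0 in all 10 libraries, and 1 of 9 was tested (Cela1, -0.59). Of the intestinal markers 2 of 6 were tested, and Lgals4 was higher in WT Fasting than in WT Fed (1.48, adjusted p = 0.00123). The part of any of these cells in the levels of the duct markers was not tested.

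Ppl and 4 genes on none of the lists had the highest correlations with the duct markers, though Mr1 kept little of its own within the groups. Over the 10 libraries, the mean of the centred log2 levels of the 9 markers correlated best, among 12349 genes, with Ppl (Pearson r = 0.914), B4galt6 (0.900), Mapk8ip1 (0.897), Selenon (0.885) and Mr1 (0.884). After the group means were removed, r was 0.771, 0.559, 0.782, 0.678 and 0.104. The points share library depth and scaling, and the group differences of the markers enter the first set of values.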

How the data were processed

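RNA from 10 mouse livers was poly-A selected and sequenced by the authors as single reads. Per the submitters' processing notes, reads were aligned to GRCm38 with STAR 2.5.1a and counted per gene with featureCounts 1.4.6-p5, and the use of strand is not stated. The deposited files give 1 count per gene and library, with CPM (counts scaled to the library total) and RPKM (CPM per kilobase of gene length) that the authors computed from the same counts, and both could be recomputed from them. No pair of libraries held identical counts. Each library was taken to be a separate mouse, and the p-values measure the spread between libraries. The titles of the WT Fed libraries carry no number, so the numbers of those mice were assigned here.

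The counts were tested with edgeR 4.0.16 in R 4.3.3. Ribosomal RNA genes were left out (355 genes, 1.3% of counts), 13444 genes had over 1 CPM in 1 or more libraries and were tested, and TMM factors, a group mean per group over all 10 libraries, quasi-likelihood tests and Benjamini-Hochberg adjustment at 0.05 were used. Log2 levels carried a prior count of 0.5. Both tests that the study names, limma voom with quality weights (limma 3.58.1) and edgeR's exact test, were alternatives, as were DESeq2 1.42.0, other scalings and filters, a replicate block and leaving out each library. The fits were tested on simulated data.

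The markers and all gene lists were chosen with earlier results of these data known. Named were Nampt, the 9 markers, per list up to 3 called genes and the 2 highest in RPKM, and the 5 genes most like the markers. Other names were chosen after their values were seen. Sequences are from RefSeq.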

Additional observations from a re-analysis of the deposited data

Results flagged for a closer look

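In the 5 NAMPT LKO livers, 26 values (the 9 duct markers and 17 summed gene lists) were examined for a mouse far from the others, by the gap to its nearest neighbour over the whole range, with a limit of 0.71. Chance alone passes about 1 in 20 such groups, or 1.3 of 26. No duct marker passed the limit, the nearest being Bicc1 in mouse 1. The sum of intestinal epithelium markers was 233 CPM in mouse 5 and 91.8 to 110 CPM in the others (0.871), and Fabp2, an intestinal fatty acid binding protein that liver also expresses, made up most of it with 218 CPM in mouse 5. The sum of proliferation markers was 2.28 CPM in mouse 5 and 4.21 to 4.99 CPM in the others (0.712).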

How the results depend on the processing

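Between NAMPT LKO and WT Fasting the median of the 9 markers (1.29) moved by less than its spread between replicates under the 18 alternatives, 3 of which (the replicate block, libraries 1 to 3 alone, without NAMPT LKO mouse 4) held 8 markers because Cldn7 failed the filter, from 1.10 to 1.60 with single libraries left out. Genes called there numbered 1, and 24 with edgeR's exact test, 24 with DESeq2, 2 by library size, 3 with filterByExpr, 17 without the filter, 0 with libraries 1 to 3 alone and 1 to 2 with a library left out. Listed genes called were 0, and 1 with DESeq2. Mice of the fasting groups with the same number correlated at 0.063, 0.174 and 0.0923 for numbers 1 to 3. The mean for different numbers was -0.0548. Whether the numbers pair the mice was not tested, and with the replicate block 0 genes were called. Between WT Fasting and WT Fed, 946 genes became 1646 with DESeq2, 3331 with voom, 1649 with the compared groups alone and 107 to 786 with a library left out (107 without WT Fed mouse 2, 194 without mouse 1). Listed genes went from 8 to 13 with DESeq2, 30 with voom and 0 to 8 with a library left out, and called markers from 0 to 2 with voom. Leaving out 1 library turned the sign of markers near 0: Spp1 (-0.28 to 0.11) without WT Fed mouse 1, Bicc1 (-0.22 to 0.083) without WT Fed mouse 2 or WT Fasting mouse 3, Sox9 (-0.29 to 0.12) without WT Fasting mouse 1, Epcam (-0.31 to 0.34) without WT Fasting mouse 2, and Cldn7 (-0.88 to 0.97) without WT Fed mouse 1 or WT Fasting mouse 1 or 3. Cldn7 was 0.10 with voom. Between the fasting groups, Krt18 turned to -0.029 without NAMPT LKO mouse 1. The lone WT Fed liver left was assumed to vary like the other groups, and the cause of these shifts was not tested. Counts of 10 to 70 per library limit Krt7 and Krt19, and counts of 1 to 39 limit Cldn7.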
